A study of Mus musculus with 12 samples.

Results

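Level-skipping regions are stretches of open chromatin that were listed for cell populations lying apart on a reporter scale, and not for a population between them. They were found by merging the 4 deposited peak lists of the study wherever peaks overlapped by at least 1 bp or touched, and by keeping merged regions chosen by presence or absence of peaks, those held by exactly 1 of 5 combinations of lists: Negative and High, Sublow and High, Negative and Low, Negative with Sublow and High, or Negative with Low and High. These were 1812 of 82365 merged regions (2.20%), or 6.30% of the 28778 regions held by 2 or 3 lists. The other 26966 regions held by 2 or 3 lists joined populations next to each other on the scale and are called neighbouring-level regions below.

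The lists came from Omni-ATAC-seq, in which the transposase Tn5 cuts and tags accessible DNA in nuclei. The cells were intestinal epithelial cells of C57Bl/6 mice, and all 4 populations carried the same Sox9-EGFP reporter and were sorted by its level into Sox9 Negative, Sox9 Sublow, Sox9 Low and Sox9 High. There were 3 libraries per population, 12 in all, and the protocol gives 12000 cells collected per population, without saying if that was for every library. A sort on 1 reporter defines a population by brightness and not by cell type, so each may hold several kinds of cell, and the labels give neither age, sex nor how many mice were used. Each population was represented by 1 consensus list with positions and no signal values (the Negative list had 45461 peaks, Sublow 52113, Low 58356 and High 54395, on the mm9 build). Read depth is unknown, and with 1 list per population there is neither a replicate error nor a test across libraries for any value below. The genes and the sequence at these positions were not analysed here, so the populations could not be checked against marker genes.

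As background, the epithelium of the intestine is renewed from stem cells at the base of the crypts. Their daughters divide as transit-amplifying progenitors and mature into absorptive enterocytes or into secretory cells such as goblet, Paneth and enteroendocrine cells. Sox9 encodes a transcription factor of the crypt. Earlier work with this reporter found stem cells enriched at the Low level and progenitors at the Sublow level, with differentiated cells in the Negative fraction and secretory cells of the enteroendocrine kind in the High fraction. Negative and High are thus the fractions in which mature cells were enriched, at opposite ends of the reporter range.

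The combination of Negative and High was the most frequent. It had 539 regions, 29.7% of the level-skipping regions (exact 95% interval 27.6 to 31.9%). Negative with Sublow and High followed with 433 regions (23.9%, 21.9 to 25.9%), then Negative with Low and High with 294 (16.2%), Sublow and High with 284 (15.7%, 14.0 to 17.4%) and Negative and Low with 262 (14.5%, 12.9 to 16.2%). In all, 1085 regions were held by 2 lists and 727 by 3. The exact intervals of the 3 smallest combinations overlapped. Exact intervals, here and below, take regions as independent and hold no error other than that of counting.

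**Figure D1:**
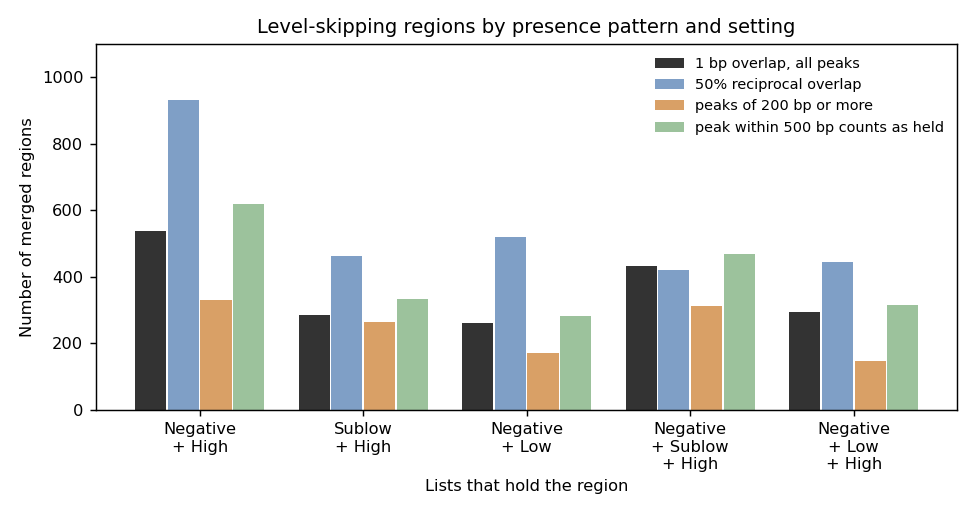
Number of merged regions (vertical axis) for each of the 5 combinations of lists (horizontal axis), with bars for the setting used in the text and for 3 others. Negative and High had the most regions in each setting shown, 539 as reported, 933 with a reciprocal overlap of 50%, 331 with peaks of at least 200 bp and 619 where a peak within 500 bp counted as held.

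Most level-skipping regions were held by the lists at the ends of the reporter range, which the choice of combinations largely sets. Negative held 1528 of the 1812 regions, Sublow 717, Low 556 and High 1550, and 1266 regions (69.9%, exact 95% interval 67.7 to 72.0%) were held by Negative and High together. Negative and High each occur in more of the 5 combinations than Sublow and Low do. This order thus follows largely from the choice of combinations and is no result about the ends. The shares of each list that follow carry the same imbalance. Level-skipping regions made up 3.44% of all Negative regions, 1.39% of all Sublow regions, 0.967% of all Low regions and 2.89% of all High regions. Read from the other side, 28560 regions were held by both Negative and High, and 1266 of these (4.43%) lacked Sublow, Low or both. Of the 34178 regions held by both Sublow and High, 717 (exact 95% interval 1.95 to 2.26%) lacked Low. Of the 35200 held by both Negative and Low, 556 (1.45 to 1.72%) lacked Sublow. Both Sublow and Low lie between Negative and High, whereas only Low or only Sublow lies between the lists of the other pairs. The shares of the pairs are thus not on equal terms.

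Level-skipping regions were narrower than neighbouring-level regions as a whole. Their median width was 305 bp (95% interval from order statistics 296 to 316), against 404 bp (402 to 407) for neighbouring-level regions. In 281 of them (15.5%) the merged region reached 500 bp, against 8573 (31.8%) of the neighbouring-level regions and 39.0% of all merged regions. Among regions of 2 lists, medians were 301 bp for Negative and High, 276 bp for Sublow and High and 227 bp for Negative and Low. The neighbouring-level regions of 2 lists had 325 bp (Negative and Sublow), 345 bp (Sublow and Low) and 377 bp (Low and High). Among regions of 3 lists, those that skipped Low had 378 bp and those that skipped Sublow 325.5 bp. The neighbouring-level regions of 3 lists had 455 bp (Negative, Sublow and Low) and 474 bp (Sublow, Low and High). Regions of 1 list had a median of 220 bp. The share of regions that skipped a level was highest among the narrowest regions. Among regions of 2 lists, 221 of 1252 under 200 bp skipped a level (17.7%), 408 of 4161 from 200 to 299 bp (9.81%), 340 of 6154 from 300 to 499 bp (5.52%) and 116 of 2967 of at least 500 bp (3.91%). Regions of 3 lists gave the same order, with 49 of 236 (20.8%), 203 of 2001 (10.1%), 310 of 6120 (5.07%) and 165 of 5887 (2.80%). Width comes from the same peak calls that chose the regions, so these values are a description and carry no test.

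The peaks behind the regions were narrow for their own lists. In level-skipping regions Negative peaks had a median of 219 bp, Sublow peaks of 215 bp, Low peaks of 203 bp and High peaks of 234 bp. In neighbouring-level regions the medians were 315, 314, 328 and 339 bp in the same order of lists, and over the whole lists 394, 464, 433 and 383 bp. A peak below the median of its own list was found for 85.4% of the Negative peaks in level-skipping regions, 95.7% of the Sublow peaks, 95.1% of the Low peaks and 81.0% of the High peaks. These widths lay near those of regions held by 1 list alone, where Negative peaks had a median of 201 bp, Sublow peaks of 184.5 bp, Low peaks of 205 bp and High peaks of 245 bp. There the shares below the list median were 92.3, 97.9, 94.7 and 80.4%. In neighbouring-level regions they were 66.4, 76.7, 70.2 and 59.0%. Sublow peaks in regions of Negative and Sublow (94.1%, median 225 bp) and Low peaks in those of Low and High (89.8%, 236 bp) were also narrow. Other peaks of single neighbouring-level combinations had 54.4 to 86.9%. Where a list gives no signal, width is the only measure of a peak's size, and its part in the skipping of a level was not tested.

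**Figure D2:**
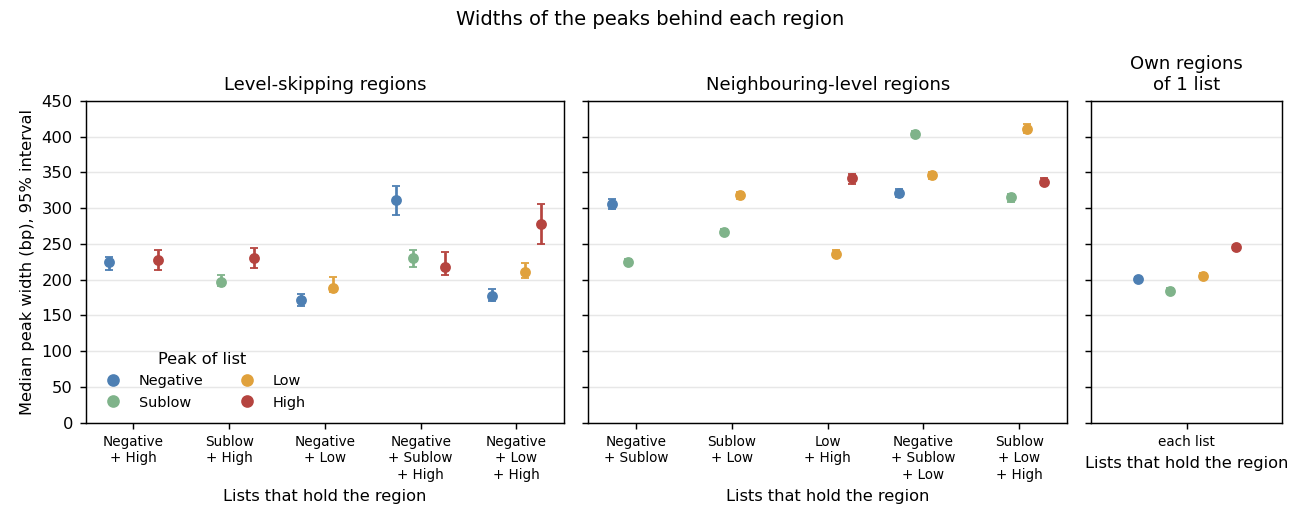
Median peak width in bp (vertical axis, points, with 95% intervals from order statistics) of each list in regions of each combination (horizontal axis), for level-skipping regions at the left, neighbouring-level regions in the middle and regions of 1 list at the right. Points of the left panel lie between 172 and 311 bp and those of the middle panel between 225 and 410 bp.

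In the regions of Negative and High, the peaks of both lists were alike in width. Negative peaks had a median of 224 bp (214 to 232) and High peaks of 228 bp (214 to 242). Of the 537 with 1 peak per list, Negative had the wider peak in 252 (46.9%) and High in 283 (52.7%). High peaks were wider where Low shared the region, with a median of 341.5 bp in the regions of Low and High, and Negative peaks were wider where Sublow shared it, with 306 bp in the regions of Negative and Sublow. The clearest examples, with the widest narrower peak and no Sublow or Low peak within 1 kb, were 4 regions. The first, chr1:58734597-58735448, had a Negative peak of 611 bp wholly inside a High peak of 852 bp, and the nearest Sublow and Low peaks lay 11869 and 11879 bp away. On chr7:107553603-107554231 a Negative peak of 544 bp and a High peak of 605 bp had 520 bp in common. On chr17:44288814-44289435 the Negative peak was 505 bp and the High peak 562 bp, and on chr7:106994123-106994712 they were 554 and 495 bp. The widest region of this combination, chr7:91025116-91026156 (1041 bp), was of another kind: a Negative peak of 434 bp and a High peak of 778 bp had 171 bp in common, and a Sublow peak lay 592 bp away and a Low peak 594 bp away.

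In the regions of Sublow and High, the High peak was more often the wider. Medians were 196.5 bp (191 to 207) in Sublow and 230.5 bp (216 to 244) in High, and High was wider in 167 of 282 regions with 1 peak per list (59.2%). The clearest example was chr12:100883286-100883882, where a Sublow peak of 504 bp lay inside a High peak of 597 bp, 10949 bp from a Negative peak and 16850 bp from a Low peak. On chr1:89363659-89364121 the peaks were 459 bp in Sublow and 433 bp in High, with 429 bp in common. The other named regions were joined by their edges. On chr5:117575211-117576087 a Sublow peak of 418 bp and a High peak of 505 bp shared 46 bp, and on chr13:75678827-75679745, the widest region of the combination, a Sublow peak of 373 bp and a High peak of 618 bp shared 72 bp.

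Regions of Negative and Low had the lowest median peak widths of the 5 combinations. They were 172 bp (163 to 180) in Negative and 188.5 bp (183 to 203) in Low, and the Low peak was the wider in 164 of 262 (62.6%). Only 11 of these 262 regions reached 500 bp. On chr12:3702666-3703176 the peaks were 454 bp in Negative and 412 bp in Low, and the nearest peak of the skipped lists was 29440 bp away, in High. On chr2:68839963-68840332 they were 304 bp in Negative and 337 bp in Low. On chr10:8528135-8528635 a Negative peak of 301 bp lay inside a Low peak of 501 bp. On chr17:5862467-5863275, the widest named region of the combination, a Negative peak of 604 bp and a Low peak of 312 bp shared 107 bp.

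**Figure D3:**
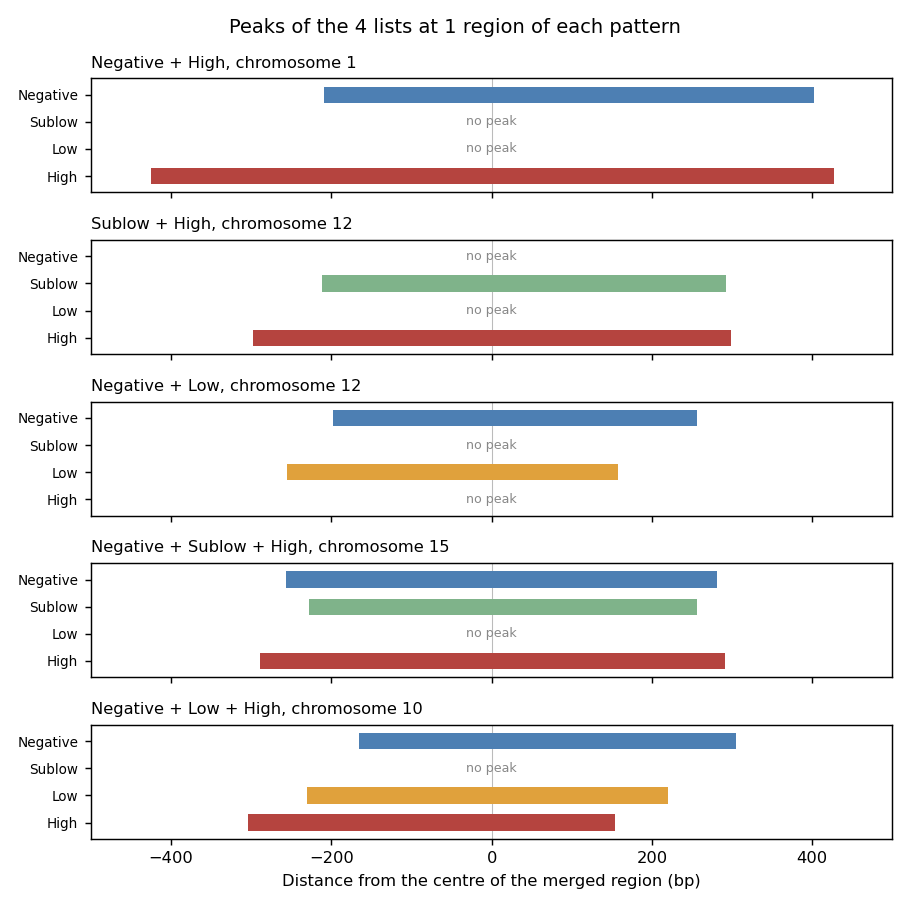
Peaks of the 4 lists (rows, bars from peak start to peak end) at the first named region of each combination, by distance in bp from the centre of the merged region (horizontal axis). Peaks largely cover each other in each map, as in the Negative and High region on chromosome 1, where the 611 bp Negative peak lies inside the 852 bp High peak. The regions were chosen for wide peaks and for no peak of a skipped list within 1 kb. That no such peak is seen thus follows from the choice.

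In regions of 3 lists, the lists next to the skipped level had narrower median peaks than the list at the far end of the range. Where Low was skipped, Negative peaks had a median of 311 bp (290 to 331), Sublow peaks of 230 bp (218 to 241) and High peaks of 217 bp (206 to 238). Where Sublow was skipped, the medians were 177 bp (170 to 187) for Negative, 211 bp (202 to 223) for Low and 278 bp (250 to 305) for High. Negative thus had the widest peak in 241 of 425 regions that skipped Low (56.7%), and High in 165 of 293 regions that skipped Sublow (56.3%). The middle list of the 3 had the narrowest peak in 167 of 425 regions that skipped Low (39.3%) and in 82 of 293 that skipped Sublow (28.0%). It had the narrowest in 537 of 7165 neighbouring-level regions of Negative, Sublow and Low (7.49%), and in 567 of 5998 of Sublow, Low and High (9.45%).

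The named regions that skipped Low differed in how alike their peaks were. On chr15:78586469-78587048 the Negative peak was 538 bp, the Sublow peak 484 bp and the High peak 580 bp wide, with 484 bp common to all, and the nearest Low peak lay 5236 bp away. On chr17:67230442-67231160 they were 719, 477 and 519 bp in Negative, Sublow and High, and no Low peak lay within 63421 bp. On chr10:42352924-42353508 the Sublow peak was the widest, at 585 bp, against 488 bp for Negative and 466 bp for High. On chr17:83895030-83895714 the peaks were 675, 463 and 525 bp in Negative, Sublow and High. The widest region that skipped Low, chr7:63166219-63167975 (1757 bp), held 4 peaks. Its Negative peaks, of which the widest was 1269 bp, reached both ends of the region. Its High peak of 678 bp and its Sublow peak of 364 bp did not overlap each other.

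Where Sublow was skipped, the clearest region was chr10:117333978-117334586, with a Negative peak of 470 bp, a Low peak of 450 bp and a High peak of 458 bp and the nearest Sublow peak 7948 bp away. On chr6:49293006-49293821 the peaks were 560, 400 and 566 bp in Negative, Low and High. On chr6:120757196-120757952 they were 364, 580 and 757 bp in the same order, so that they widened with the reporter level. On chrX:121307207-121307611 they were 405, 387 and 357 bp, and the nearest Sublow peak was 1795781 bp away. The widest region of the combination, chr9:99405556-99406573, was a High peak of 1018 bp that held a Negative peak of 236 bp and a Low peak of 136 bp.

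The peaks of level-skipping regions covered each other wholly in a smaller share of cases than those of neighbouring-level regions with as many lists. Among the 1799 with 1 peak per list, the narrowest peak lay wholly inside the others in 980 (54.5%, exact 95% interval 52.1 to 56.8%), against 17142 of 26534 neighbouring-level regions (64.6%, 64.0 to 65.2%). In regions of 2 lists this share was 55.0 to 59.8% by combination, against 64.7 to 73.9% for neighbouring levels. In regions of 3 lists it was 49.5 and 50.1%, against 55.6 and 62.6%. The bases common to all the lists reached 50% of the widest peak in 1157 (64.3%), against 20195 (76.1%). With 2 lists, this second share was 72.6% for Negative and High, 72.3% for Sublow and High and 77.9% for Negative and Low. Neighbouring-level regions of 2 lists had 83.6% (Negative and Sublow), 89.1% (Sublow and Low) and 73.5% (Low and High). With 3 lists, it was 50.8% where Low was skipped and 48.8% where Sublow was skipped. Neighbouring-level regions of 3 lists had 73.2% (Negative, Sublow and Low) and 65.8% (Sublow, Low and High). The centres of the peaks of level-skipping regions lay a median of 40.5 bp apart, against 37.5 bp in neighbouring-level regions. In 21 of all the level-skipping regions, each of 3 lists, no base was common to all 3. At the limit of the rule, 7 regions were held together by a link of at most 10 bp (the smallest was 1 bp), and 1 had a peak of a skipped list within 10 bp, at 4 bp. Just outside the limit, 1 region was kept out by a peak that overlapped by 9 bp.

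Most level-skipping regions had no peak of the skipped population close by. A Low peak lay within 1000 bp of 211 of the 1256 regions that lacked Low (16.8%, exact 95% interval 14.8 to 19.0%), against 11.8% of all regions without a Low peak. A Sublow peak lay within 1000 bp of 149 of the 1095 that lacked Sublow (13.6%, 11.6 to 15.8%), against 9.79% of all regions without a Sublow peak. For Negative these values were 36 of 284 (12.7%, 9.04 to 17.1%) against 7.38%, and for High 31 of 262 (11.8%, 8.18 to 16.4%) against 11.4%. The exact intervals for the skipped lists Negative, Sublow and Low lay above the share over all regions, and that for High included it. This did not hold in every combination. For Low, the interval in regions of Negative and High (12.1%, 9.43 to 15.1%) included the share over all regions. It lay above in Sublow and High (14.9 to 24.4%) and in Negative with Sublow and High (17.3 to 25.2%). For Sublow, the interval in Negative with Low and High (9.02 to 16.9%) included it. Those in Negative and High (9.93 to 15.7%) and Negative and Low (12.5 to 21.9%) lay above. Level-skipping regions also lay in denser surroundings than neighbouring-level regions, with a median of 9 other regions within 50 kb (8 to 9) against 7. Regions of all 4 lists had 8, inside that interval. By combination the median was 8 for Negative and High and for Sublow and High, and 9 for Negative and Low. It was 10 for Negative with Sublow and High and 7.5 for Negative with Low and High (95% interval from order statistics 7 to 8). The part of the density in the distances was not tested.

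**Figure D4:**
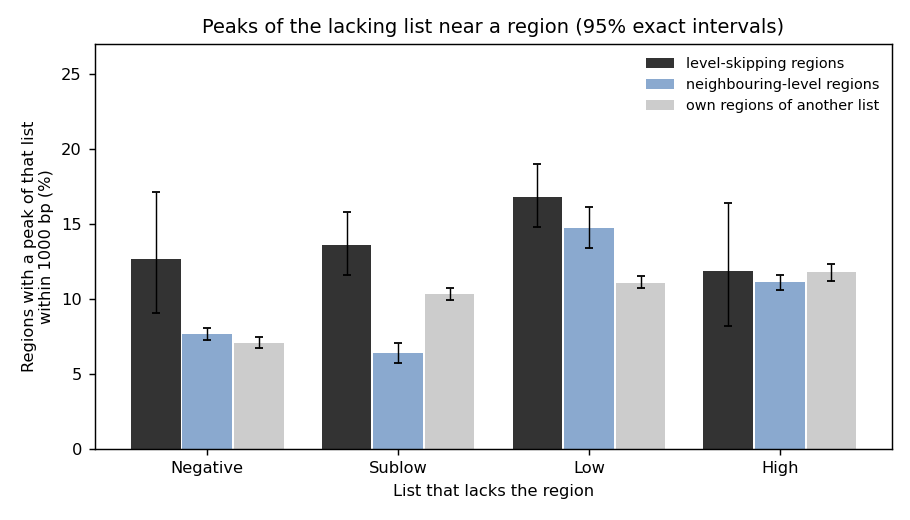
Share of regions, in percent (vertical axis, with exact 95% intervals), with a peak within 1000 bp in a list that lacks the region (horizontal axis), for level-skipping regions, neighbouring-level regions and regions of 1 other list. For Sublow the share was 13.6% in level-skipping regions, 6.36% in neighbouring-level regions (all of Low and High) and 10.3% in regions of 1 other list. In the same order the shares were 12.7, 7.67 and 7.07% for Negative, 16.8, 14.7 and 11.1% for Low, and 11.8, 11.1 and 11.8% for High.

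The combinations differed in how near the skipped list came. Where Low alone was skipped, 91 of 433 regions had a Low peak within 1000 bp (21.0%, against 11.8% of all regions without a Low peak). The median distance to Low was 3056 bp (2575 to 3743). Where Sublow alone was skipped, 37 of 294 had a Sublow peak within 1000 bp (12.6%, against 9.79% of all regions without a Sublow peak). The median distance to Sublow was 6494.5 bp (5267 to 8064). The Low list also had more peaks (58356 against 52113 in Sublow). Regions that skipped Low alone lay in denser surroundings than those that skipped Sublow alone (medians of 10 and 7.5 other regions within 50 kb). The part of either in the difference was not tested. Regions of Negative and High lay a median of 4832 bp from a Sublow peak and 4392 bp from a Low peak. Of the neighbouring-level regions, those of Negative and Sublow were about as near to Low (4669 bp, 14.7% within 1000 bp), whereas those of Low and High were far from Negative (17348.5 bp, 4.43%) and Sublow (12380.5 bp, 6.36%). Regions of Sublow and High lay a median of 7503.5 bp from Negative (12.7% within 1000 bp), close to the 7909 bp (10.7%) of the neighbouring-level regions of Sublow and Low.

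The region nearest to a level-skipping region was held by all 4 lists for 667 (36.8%, 34.6 to 39.1%), against 8321 (30.9%) of neighbouring-level regions and 32.5% of all regions. By combination this share ran from 34.0 to 39.4% in level-skipping regions. In neighbouring-level regions it ran from 24.3% (Low and High) to 36.5% (Negative and Sublow, 34.7 to 38.4%), so the ranges overlapped. The nearest region was another level-skipping region for 54 (2.98%, 2.25 to 3.87%), against 573 (2.12%) of neighbouring-level regions and 2.28% of all regions. A region of Negative alone was the nearest for 60 of the 539 regions of Negative and High (11.1%, 8.60 to 14.1%), 26 of the 262 of Negative and Low (9.92%) and 8 of the 284 of Sublow and High (2.82%, 1.22 to 5.47%), against 7.33% of all regions and 12.9% of the neighbouring-level regions of Negative and Sublow. A region of High alone was the nearest for 220 of all 1812 level-skipping regions (12.1%, 10.7 to 13.7%). This lay below its share over all regions, 13166 of 82365 (exact 95% interval 15.7 to 16.2%). By combination it was 51 of the 294 of Negative with Low and High (17.3%, 13.2 to 22.2%) and 64 of the 539 of Negative and High (11.9%). It was 38 of the 284 of Sublow and High (13.4%) and 27 of the 262 of Negative and Low (10.3%). For Negative with Sublow and High it was 40 of 433 (9.24%). Among neighbouring-level regions the share was 26.6% for Low and High and 18.8% for Sublow, Low and High. For Sublow and Low it was 11.9%, for Negative, Sublow and Low 9.92%, and for Negative and Sublow 8.88%. Low shares were thus not particular to level-skipping regions.

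Few windows of the genome held several of them. Chromosomes were divided into windows of 100 kb, of which 1485 held 1 level-skipping region, 136 held 2, 17 held 3 and 1 held 4. The last window, on chromosome 17 from 29000001 to 29100000, held 18 merged regions, of which 2 were of Negative and High, 1 of Negative and Low and 1 of Negative with Low and High, with peaks from 112 to 245 bp. Of the 17 windows that tied at 3, the first by position are given. On chromosome 1 from 135100001 to 135200000, 3 of 21 regions skipped a level, and on chromosome 2 from 60000001 to 60100000, 3 of 7. Both of these windows held 3 unlike combinations. Within 1000 bp of each other lay 11 adjacent pairs, 5 of the same combination and 6 of unlike ones.

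The closest pair of unlike combinations lay 14 bp apart on chromosome 3. The first, chr3:51821466-51822101, had a High peak of 636 bp over a Sublow peak of 401 bp and Negative peaks of at most 136 bp. The second, chr3:51822116-51822308, was a Low peak of 193 bp over a Negative peak of 91 bp. Low thus had no peak in the first and High none in the second, although their peaks lay 14 bp apart, so that the division into separate regions rests on the requirement that peaks overlap or touch.

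Level-skipping regions were found on every chromosome. Their share of the regions held by 2 or 3 lists ran from 5.28% on chromosome 18 to 7.70% on chromosome 7 (131 regions, 6.48 to 9.07%) among autosomes. It was 4.12% on X (24 of 583, 2.66 to 6.06%), and 2 of 8 such regions on Y skipped a level. The share over the genome, 6.30%, lay within the interval of each autosome except chromosome 7 and chromosome 11 (145 of 1931, 7.51%, 6.37 to 8.78%), where the interval lay above it. On X the interval lay below it. With 21 chromosomes compared and no test, these 3 are given as values. Of the 63 regions on chromosome 19, 18 were of Sublow and High and 4 of Negative and Low (15.7% and 14.5% of all level-skipping regions). Of the 98 on chromosome 10, 37 were of Negative with Sublow and High and 9 of Negative with Low and High (23.9% and 16.2% of all). Of the 145 on chromosome 11, 33 were of Negative with Low and High. These counts were picked from 21 chromosomes and 5 combinations and carry no test.

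Which regions skipped a level depended on the peaks admitted. With peaks of at least 200 bp, 571 of the 1812 regions (31.5%) kept their combination, 618 were left with 1 list and 341 with none. With the 22730 widest peaks of each list, 14 regions kept their combination, 12 of them of Negative and High, and 1419 were left with none. Most peaks of level-skipping regions were below the median of their own list, so this loss largely follows from the cut. How many neighbouring-level regions kept their combination under these cuts was not counted. With the widest peaks, 1612 regions skipped a level, 16.2% of those of 2 or 3 lists. Of these, 1461 (90.6%) lay in regions that all 4 full lists held. By contrast, 1682 (92.8%) kept their combination where a peak within 500 bp counted as held, and 96 then belonged to all 4 lists. With a reciprocal overlap of 50%, 1311 (72.3%) kept it, and of the 2780 regions that then skipped a level 1098 (39.5%) came from regions of all 4 lists.

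**Figure D5:**
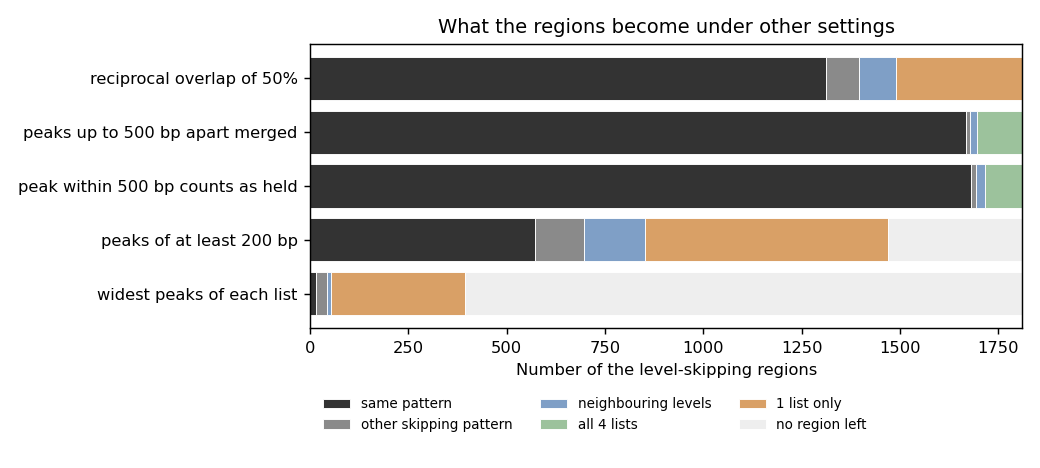
Number of the 1812 level-skipping regions (horizontal axis) that kept their combination of lists or took another under each of 5 other settings (rows), by colour. The dark part shrinks to 571 with peaks of at least 200 bp and to 14 with the widest peaks of each list, and stays at 1669 where peaks up to 500 bp apart were merged.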

How the data were processed

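Omni-ATAC-seq libraries of 4 sorted populations of mouse intestinal epithelial cells were represented by 4 consensus peak lists that the authors deposited, 1 per population. The deposited values are peak starts and ends in bp, with no score, height or value per library. Per the submitters' processing notes, the tools were MACS2 2.1.2, deepTools 2.5.2, Picard 2.10.3, Bowtie2 2.3.4 and Trim Galore 0.4.3, and the build was mm9. Their settings, the rule that combined libraries and any shift for the Tn5 offset are not given in the sources used here, and a shift would move peak edges.

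Some peaks of each list start and end at the same position. Positions were therefore read as 1-based and inclusive, so that such a peak is 1 bp wide. A list that lacks a region has no consensus peak there, which does not show that the DNA was closed. Shares have exact (Clopper-Pearson) 95% intervals, and medians have 95% intervals from binomial order statistics. Neither covers differences between animals or libraries. The regions named were, for each combination, the 4 with the largest narrowest peak (1 peak per list, no peak of a skipped list within 1 kb) and the widest region, together with the first 3 windows of 100 kb by number of such regions (ties taken by position) and the closest pair of unlike combinations. Regions of chromosome 18 were counted and not named. The regions, combinations and lists were chosen with earlier results of these data known. With no mm9 annotation used here, the gene lists were left out. The reference tables at hand are of GRCm38, and no coordinates were converted.

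The alternatives were a reciprocal overlap of 50%, merging of peaks up to 500 bp apart, peaks of at least 200 bp, autosomes only, the 22730 widest peaks of each list, a base common to every list, and a peak within 500 bp counted as held. Starts counted from 0 were added after seeing the data. The merging and distance functions were tested on 20000 simulated regions, where 100% received the right combination. Software was matplotlib 3.10.9, scipy 1.17.1, pandas 2.3.3 and numpy 2.4.6 under Python 3.11.15.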

Additional observations from a re-analysis of the deposited data

How the results depend on the processing

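No paired analysis was possible because the libraries of a population were combined into 1 list before deposit, which also left no replicate to take out in turn. The alternatives for sequence and gene position were not run, for want of an mm9 annotation in the sources used here. With a reciprocal overlap of 50%, level-skipping regions numbered 2780, with 933 of Negative and High, 462 of Sublow and High, 521 of Negative and Low and 443 of Negative with Low and High. With peaks of at least 200 bp there were 331 of Negative and High, 171 of Negative and Low and 147 of Negative with Low and High, and peaks had medians of 306.5 bp for Negative, 278 bp for Sublow, 268 bp for Low and 313 bp for High, which are larger by construction. The widest peaks of each list gave 165 regions of Negative and Low and 176 of Negative with Low and High. The other 46 values stayed within 1.5-fold of the count or inside the interval of the median. Read depth is unknown, so whether a skipped population was closed at a region or its peak was missed cannot be told from the lists.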
